A study of Mus musculus with 6 samples.

Results

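Cytokine and growth factor receptors are the surface proteins through which blood cells read growth, survival and differentiation signals. The genes examined here were 10 receptors of lymphoid and progenitor cells, taken by name from the deposited table, where all 10 had an entry among 17169 entries in all. They were Il7r, Il2ra, Il2rg, Il5ra, Csf2rb, Il10ra, Ifngr1, Flt3, Kit and Tnfrsf9. Transcripts were sequenced from cultured mouse SCLL lines on the Balb/c strain, titled BBC, ZNF and BCRF8C, each established from marrow of a diseased animal. SCLL stands for stem cell leukemia and lymphoma, in which a fusion protein carries the kinase part of FGFR1. Each line was kept for 24 h with BGJ398 (infigratinib), an inhibitor of FGFR kinases, or with the solvent DMSO, and gave 1 library per agent, so 6 libraries in all and no repeat within a line. The protocol lists doses of 30, 3 and 1.5 nM in the order in which it lists the lines, and matching them by that order is an assumption, so dose and line cannot be told apart. The labels name no repeat culture of a line, and both agents were applied to all 3 lines.

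Receptors without a kinase of their own, such as those for interleukins and interferons, are paired with JAK kinases, which phosphorylate STAT transcription factors once a ligand joins the receptor chains. Several interleukin receptors share a chain, the common gamma chain encoded by Il2rg or the common beta chain encoded by Csf2rb. Flt3 and Kit, by contrast, are tyrosine kinases themselves, known from stem and progenitor cells, and Tnfrsf9 (4-1BB) belongs to the TNF receptor family and signals through TRAF adaptors. Interleukin-7 receptor signals are known to be needed by early mouse B and T cells.

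Levels are in FPKM, a unit corrected for transcript length and library size, so they can be set side by side between genes. Ratios are differences of log2(FPKM + 1) between BGJ398 and DMSO, a scale that shrinks differences between low values. In the table as deposited, the median ratio of the 14232 entries tested (those averaging 1 FPKM or more across all 6 libraries) was -0.91 in BBC, -0.37 in ZNF and -0.76 in BCRF8C, and it lay between 0.00 and 0.02 after a curve of ratio against level had been subtracted in each line. Ratios with this trend removed are therefore given beside the deposited ones. The table also leaves out most entries that stayed under 1 FPKM in a line. Of the entries not listed at 0 in both libraries of a line, 0 of 17155 in BBC, 260 of 13984 in ZNF and 193 of 15529 in BCRF8C were under 1 FPKM in both. As a result 4041 of 4041 entries under 1 FPKM in DMSO were higher with BGJ398 in BBC, 2973 of 3003 in ZNF and 4462 of 4483 in BCRF8C, and a rise from such a level is built into the table. Zeros in both libraries of a line were found for 3185 entries in ZNF and 1640 in BCRF8C, so a gene at 0 in a pair is described only as listed at 0.

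The lines were told apart by lineage markers. In BBC 9 of 9 B lineage markers had at least 1 FPKM in DMSO, with a summed level of 1457 FPKM in DMSO and 748 with BGJ398, against 0.664 to 10.0 in the libraries of the other lines, where Cd79b, Vpreb1 and Igll1 were among the markers listed at 0. In ZNF 8 of 8 T lineage markers with an entry had at least 1 FPKM, at summed levels of 1132 FPKM in DMSO and 712 with BGJ398, against 51.6 to 114 elsewhere. BCRF8C had 0 of the 9 B lineage markers at 1 FPKM in DMSO. Of the 8 T lineage markers 3 were under 1 FPKM there and 2 above 10 FPKM, Thy1 (92.3 FPKM) and Cd247 (12.9 FPKM). BBC also had 2 of the 8 above 10 FPKM in DMSO, Thy1 (31.6 FPKM) and Lck (28.6 FPKM), and 4 under 1 FPKM. BCRF8C had the highest level of the progenitor marker Ly6a (831 FPKM), while 4 of the 7 stem and progenitor markers with an entry were under 1 FPKM there. Stromal markers summed to between 0.413 and 20.3 FPKM over the 6 libraries and myeloid markers to between 0.0488 and 8.13 FPKM, and both sums were higher with BGJ398 in all 3 lines, as were most other low entries. Their part in the results was not tested. In such bulk samples, fewer cells that carry a receptor and less RNA per cell cannot be told apart.

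Across the lines, 5 of the 10 receptors differed between the lines, 1 was lower with BGJ398 and 1 was higher. The tests were those of limma on all 14232 entries, with the line and the agent in the same model, at an adjusted p under 0.05. The share of all entries that passed was 6.47% for the difference between lines, 30.2% for lower with BGJ398 and 6.61% for higher. The receptors that differed between lines were Il7r, Il2ra, Il5ra, Csf2rb and Tnfrsf9. The median ratio of the 10 receptors across lines was -0.02, beside -0.69 for all entries tested. With 1 library per line and agent, these p-values measure the spread left over among 3 different lines, not among repeat cultures.

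**Figure D1:**
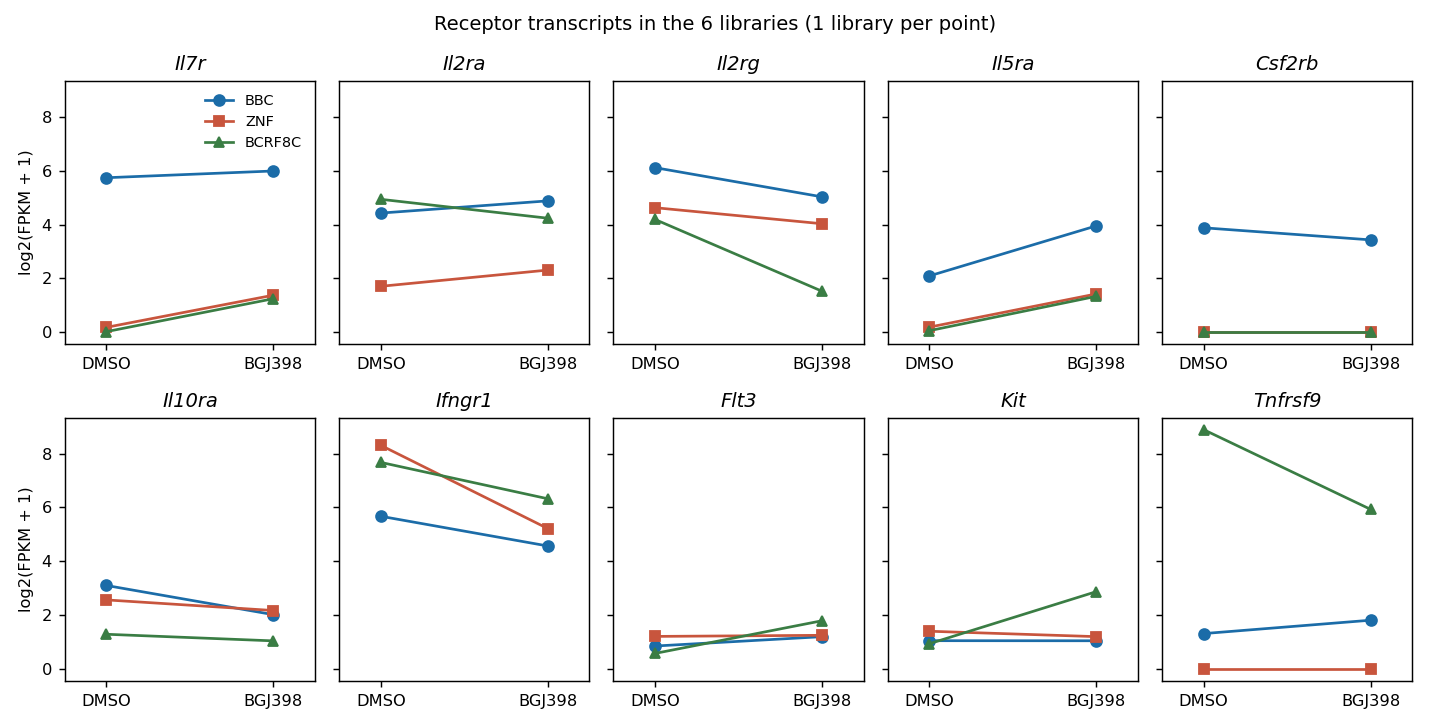
Level of each of the 10 receptor transcripts, as log2(FPKM + 1), in the DMSO and BGJ398 libraries of BBC (circles), ZNF (squares) and BCRF8C (triangles), with 1 library per point and no error bars because there were no repeats. Il7r and Csf2rb are high in both BBC libraries alone, and Tnfrsf9 in both BCRF8C libraries alone, while Flt3 and Kit stay near the bottom of the scale in BBC and ZNF.

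Promoters are shown for the 5 receptors that passed a test of line or agent and have a promoter entry, so that the stretch of genome in front of each can be read beside its values. The sequences are from RefSeq on GRCm38.p6, which is another build than that of the table. Promoter entries were matched by symbol for 8 of the 10 receptors, with 10 listed starts. Each run holds the 250 bases before a listed start, on the gene's strand, 5′ to 3′, and capitals mark matches to a motif on either strand. For Il7r they mark a STAT motif and for Il5ra an AP-1 motif, and the runs of Il2ra, Ifngr1 and Tnfrsf9 held no match to the motifs searched. For Tnfrsf9 the upstream of its listed starts is shown, since the downstream one overlaps an untranslated stretch of another Tnfrsf9 transcript in GENCODE vM21. The Il7r run overlaps an exon of a non-coding Il7r transcript there.
Il7r (chr15:9529877-9530126, minus strand): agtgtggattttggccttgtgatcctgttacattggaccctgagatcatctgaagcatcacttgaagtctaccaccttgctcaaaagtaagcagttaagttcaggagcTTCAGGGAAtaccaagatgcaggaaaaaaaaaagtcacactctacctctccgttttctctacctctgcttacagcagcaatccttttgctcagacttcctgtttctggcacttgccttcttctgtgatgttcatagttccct
Il2ra (chr2:11642542-11642791, plus strand): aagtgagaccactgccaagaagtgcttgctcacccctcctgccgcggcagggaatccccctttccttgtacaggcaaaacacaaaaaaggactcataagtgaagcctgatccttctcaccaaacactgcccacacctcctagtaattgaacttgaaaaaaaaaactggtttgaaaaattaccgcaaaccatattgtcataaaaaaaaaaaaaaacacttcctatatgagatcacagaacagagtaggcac
Il5ra (chr6:106749038-106749287, minus strand): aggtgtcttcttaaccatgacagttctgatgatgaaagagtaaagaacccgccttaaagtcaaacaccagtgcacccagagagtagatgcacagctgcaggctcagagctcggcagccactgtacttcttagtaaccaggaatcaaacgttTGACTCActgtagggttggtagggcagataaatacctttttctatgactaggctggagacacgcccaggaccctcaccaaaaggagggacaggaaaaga
Ifngr1 (chr10:19591699-19591948, plus strand): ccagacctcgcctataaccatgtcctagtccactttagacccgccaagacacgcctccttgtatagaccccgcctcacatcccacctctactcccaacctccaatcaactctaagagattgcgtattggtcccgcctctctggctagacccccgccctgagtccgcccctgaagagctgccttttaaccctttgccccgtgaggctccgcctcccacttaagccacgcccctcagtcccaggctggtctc
Tnfrsf9 (chr4:150919905-150920154, plus strand): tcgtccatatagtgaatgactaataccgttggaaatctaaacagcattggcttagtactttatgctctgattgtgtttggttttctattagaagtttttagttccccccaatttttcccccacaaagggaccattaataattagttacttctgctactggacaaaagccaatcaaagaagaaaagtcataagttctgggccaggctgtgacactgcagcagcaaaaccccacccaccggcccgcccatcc

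Of the 10 receptor starts, 2 held the STAT motif TTCNNNGAA (Il7r and the downstream start of Tnfrsf9), as did 7.02% of all 32851 listed starts. The AP-1 letters TGACTCA were in 2 (the downstream start of Tnfrsf9, and Il5ra) against 4.46% of all, the ETS letters CCGGAAG in 1 (Il2rg) against 6.91%, and the letters GATAAG of GATA factors in 1 (Tnfrsf9, downstream) against 6.55%. TGTGGTT (RUNX) was in 0 of the 10 and in 4.40% of all. These are matches of letters in short windows, the motifs were chosen after the levels and these promoters had been seen, and no match overlapped another.

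Il7r (ENSMUSG00000003882, chromosome 15, 9435916 to 9459631 in NCBIM37) encodes the alpha chain of the receptors for interleukin-7 and TSLP. It was at 52.4 FPKM in DMSO and 62.5 FPKM with BGJ398 in BBC, at 0.135 and 1.60 FPKM in ZNF, and at 0.0160 and 1.37 FPKM in BCRF8C. Both BBC libraries therefore lay far above all 4 others, and ZNF and BCRF8C did not separate. Averaged over both agents, BBC was 5.08 above ZNF on the log2 scale and 5.23 above BCRF8C, with a standard error of 0.40 from limma, and the line difference passed (adjusted p = 0.00295). ZNF and BCRF8C differed by 0.14, less than that error. Within its library the BBC level stood at percentile 86.2 of the tested entries in DMSO and 95.5 with BGJ398.

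The ratio of Il7r in BBC was 0.25 as deposited and 1.96 with the trend removed. Entries that had 50 to 100 FPKM in DMSO in BBC had a median of 18.5 FPKM with BGJ398 and quartiles of 12.2 and 26.0, so Il7r kept a level above that range. In ZNF and BCRF8C its values with BGJ398 lay inside or below the quartiles of entries that had 0.01 to 0.5 FPKM in DMSO, which were 1.23 to 2.67 FPKM in ZNF and 1.56 to 3.40 FPKM in BCRF8C. Across lines the ratio was 0.89 ± 0.55 (SD, n = 3 lines) and did not pass (limma adjusted p = 0.0696).

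Il2rg (ENSMUSG00000031304, chromosome X, 98456715 to 98464362), the common gamma chain that also completes the interleukin-7 receptor, was, with Ifngr1, the receptor found above 10 FPKM in every DMSO library. It went in BBC from 68.2 to 31.6 FPKM, in ZNF from 23.7 to 15.3 FPKM and in BCRF8C from 17.2 to 1.87 FPKM. All 3 lines were lower with BGJ398, and the BCRF8C library with BGJ398 was the lowest of the 6. The ratios were -1.08, -0.60 and -2.66 as deposited and 0.58, 0.09 and -1.76 with the trend removed, so BBC and ZNF changed sign and BCRF8C did not. In BCRF8C, entries of 10 to 50 FPKM in DMSO had quartiles of 5.05 and 11.6 FPKM with BGJ398, and Il2rg lay below both. Its percentile among tested entries went from 64.4 to 17.9 in that line, whereas it went from 89.2 to 91.9 in BBC and from 73.6 to 74.4 in ZNF. Across lines the ratio of -1.45 ± 1.08 (SD, n = 3 lines) missed the threshold (limma adjusted p = 0.0510), as did that with the trend removed (-0.36, adjusted p = 0.656). The deposited ratio passed when only entries averaging 5 FPKM or more were tested (adjusted p = 0.0272). So did 5225 of all 9109 entries tested there, 315 of them higher. The line difference did not pass either (adjusted p = 0.0793), but it too passed among entries averaging 5 FPKM or more (adjusted p = 0.0382), and BBC in DMSO was 1.49 above the next line on the log2 scale.

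Il2ra (ENSMUSG00000026770, chromosome 2, 11564419 to 11614818) encodes CD25, the alpha chain that gives the interleukin-2 receptor its high affinity. Its level went in BBC from 20.5 to 28.4 FPKM, in ZNF from 2.26 to 3.96 FPKM and in BCRF8C from 29.6 to 17.8 FPKM. Both ZNF libraries were below all 4 others. BBC and BCRF8C overlapped, with a mean difference of 0.07 on the log2 scale against a limma standard error of 0.45, while ZNF was 2.64 below BBC and 2.58 below BCRF8C. The line difference passed (adjusted p = 0.0315), was not found without ZNF (adjusted p = 0.944) and was also lost without BBC (adjusted p = 0.294). Without BBC 0 of all 14232 entries passed for the line. Without BCRF8C the difference passed (adjusted p = 6.99e-05). As deposited, the BBC, ZNF and BCRF8C ratios were 0.45, 0.60 and -0.70, and with the trend removed they were 1.95, 0.60 and 0.78, all above 0. In BBC and in BCRF8C the level with BGJ398 was above the upper quartile of entries of 10 to 50 FPKM in DMSO, which was 11.2 FPKM and 11.6 FPKM. Across lines neither the deposited ratio (0.12 ± 0.71, SD, n = 3 lines, limma adjusted p = 0.802) nor that with the trend removed (1.11, adjusted p = 0.170) passed.

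Il5ra (ENSMUSG00000005364, chromosome 6, 106660378 to 106695103) encodes the ligand-binding chain for interleukin-5, known from eosinophils and B-1 cells. It went in BBC from 3.27 to 14.5 FPKM, in ZNF from 0.142 to 1.68 FPKM and in BCRF8C from 0.0415 to 1.52 FPKM. In BBC it was the receptor with the largest ratio, 1.86 as deposited and 2.94 with the trend removed. Entries of 3 to 10 FPKM in DMSO in BBC had quartiles of 1.93 and 4.43 FPKM with BGJ398, below the 14.5 FPKM of Il5ra, and its percentile moved from 28.8 to 81.6. In ZNF and BCRF8C it started under 1 FPKM, where the make-up of the table leaves almost only higher values with BGJ398. In ZNF 1.68 FPKM lay inside the quartiles of entries of 0.01 to 0.5 FPKM in DMSO, and in BCRF8C 1.52 FPKM lay below them.

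Across lines Il5ra rose by 1.46 ± 0.35 (SD, n = 3 lines, limma adjusted p = 0.0350), in 3 of 3 lines. That call ended after quantile normalization (1.11, adjusted p = 0.347), after median-of-ratios scaling (1.85, adjusted p = 0.0551) and with the trend removed (1.43, adjusted p = 0.219). It also ended without BBC (adjusted p = 0.179) and without ZNF (adjusted p = 0.0541), and held without BCRF8C (adjusted p = 0.0300). Of all 14232 entries tested, only 2, 4 and 7 passed for the agent under those 3 scalings, and 0 without BBC. A lost call there is therefore not particular to Il5ra. BBC was 2.21 above ZNF and 2.33 above BCRF8C over both agents, with a limma standard error of 0.43, and the line difference passed (adjusted p = 0.0427), while ZNF and BCRF8C differed by 0.11. With a pseudocount of 0.1 (adjusted p = 0.0616), after quantile normalization (0.172), after median-of-ratios scaling (0.0679) and without BBC (0.682) or ZNF (0.120) the line difference did not pass. It passed without BCRF8C (limma adjusted p = 0.000301). Without BBC 0 of all entries tested passed for the line.

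Csf2rb (ENSMUSG00000071713, chromosome 15, 78156420 to 78184277), the common beta chain that signals for interleukin-5, interleukin-3 and GM-CSF, had 13.7 FPKM in DMSO and 9.78 FPKM with BGJ398 in BBC and was listed at 0 in all 4 libraries of ZNF and BCRF8C. So Il5ra and its signalling chain were both highest in BBC. The ratio in BBC was -0.45 as deposited and 0.83 with the trend removed, and the 9.78 FPKM lay inside the quartiles (4.78 and 11.2 FPKM) of entries of 10 to 50 FPKM in DMSO. The line difference passed (limma adjusted p = 0.0130) on values that rest on listed zeros, which have no spread. It did not pass with a pseudocount of 0.1 (adjusted p = 0.0656) or without ZNF (0.0736), and without BBC no difference was left to test. It passed without BCRF8C (limma adjusted p = 7.77e-11), again on listed zeros. The neighbouring gene Csf2rb2 is a near-identical copy, so reads may have been split between them and both values are uncertain. Csf2rb2 had 1.85 and 1.55 FPKM in BBC and was under 1 FPKM in the other libraries.

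Il10ra (ENSMUSG00000032089, chromosome 9, 45061920 to 45077232) and Ifngr1 (ENSMUSG00000020009, chromosome 10, 19311755 to 19330035) encode ligand-binding chains of the receptors for interleukin-10 and for interferon gamma. Il10ra went in BBC from 7.57 to 3.04 FPKM, in ZNF from 4.91 to 3.50 FPKM and in BCRF8C from 1.44 to 1.06 FPKM. Both BCRF8C libraries were the lowest, and BBC and ZNF overlapped. The ratios in BBC, ZNF and BCRF8C were -1.08, -0.39 and -0.25 as deposited and -0.24, -0.19 and -1.02 with the trend removed, so a 2-fold fall in BBC was lost and one in BCRF8C appeared. Neither the ratio across lines (-0.57 ± 0.45, SD, n = 3 lines, limma adjusted p = 0.183) nor the line difference (adjusted p = 0.138) passed.

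Ifngr1 was one of the most abundant of the 10 transcripts. It went in BBC from 49.9 to 22.7 FPKM, in ZNF from 315 to 36.1 FPKM and in BCRF8C from 203 to 78.9 FPKM. ZNF thus had the highest level of the 3 lines in DMSO and not with BGJ398. Across lines it fell (log2 ratio -1.85 ± 1.08, SD, n = 3 lines, limma adjusted p = 0.0405), in 3 of 3 lines. The call ended after quantile normalization (-0.40, adjusted p = 0.694), after median-of-ratios scaling (-1.11, adjusted p = 0.224) and with the trend removed (-0.32, adjusted p = 0.757), and without BBC (adjusted p = 0.235) or BCRF8C (adjusted p = 0.0584). It held without ZNF (adjusted p = 0.0375). Of all 14232 entries tested, only 2, 4 and 7 passed under these scalings, and 0 without BBC.

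The lines did not do the same on the scale without the trend. There the ratio of Ifngr1 was -2.14 in ZNF, 0.49 in BBC and 0.69 in BCRF8C. Entries of 100 FPKM or more in DMSO in ZNF had quartiles of 64.5 and 274 FPKM with BGJ398, and the 36.1 FPKM of Ifngr1 lay below them, while in BCRF8C 78.9 FPKM lay inside the quartiles of such entries (26.5 and 90.0 FPKM). Its percentile went from 97.4 to 89.3 in ZNF, from 85.6 to 88.6 in BBC and from 96.2 to 97.4 in BCRF8C. With 1 library per line and agent, that difference between lines was not tested. Ifngr2, the other chain of that receptor, had 19.3 FPKM in BBC, 4.32 FPKM in ZNF and 0.935 FPKM in BCRF8C in DMSO, the reverse of the order of Ifngr1 for BBC against the others.

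**Figure D2:**
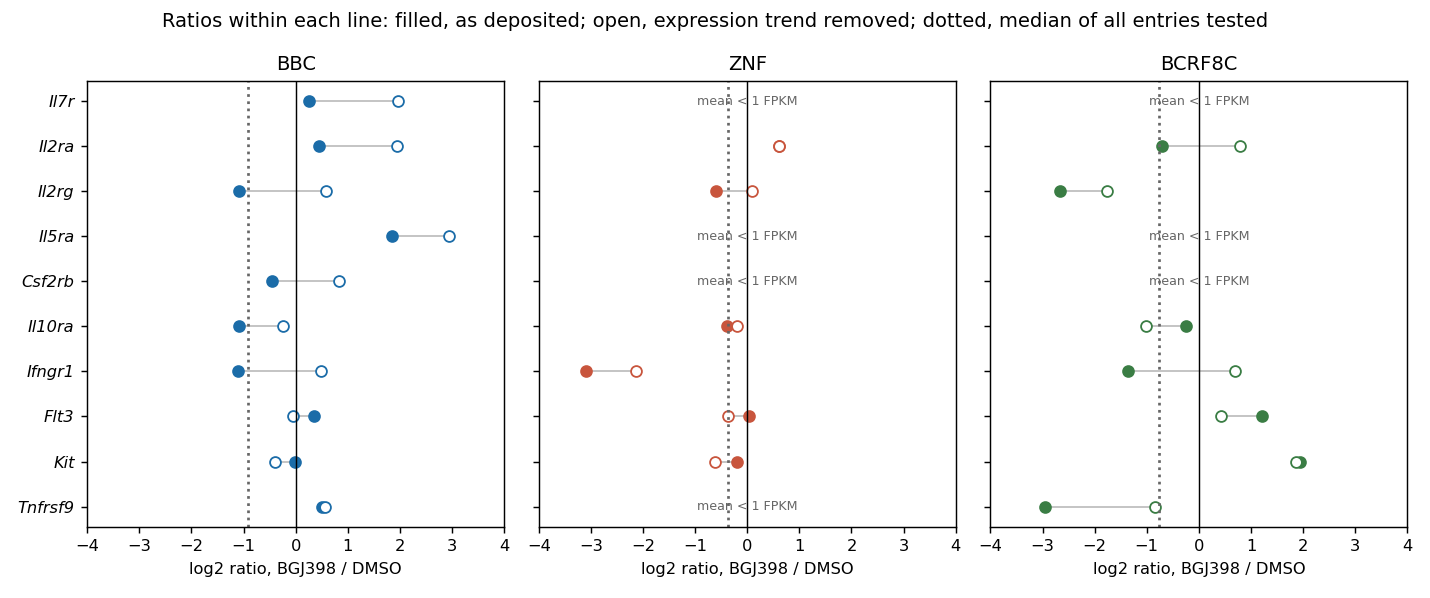
Log2 ratio of BGJ398 to DMSO, on log2(FPKM + 1), for each receptor in BBC, ZNF and BCRF8C, as deposited (filled points) and with the trend against expression removed (open points), with 1 library per agent and no error bars. The dotted line is the median of all tested entries in that line, and receptors with a mean under 1 FPKM in a line are not drawn there. Il5ra and Il2ra in BBC and Kit in BCRF8C are among those to the right of 0 on both scales, and Ifngr1 in ZNF and Il2rg in BCRF8C among those to the left on both.

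Flt3 (ENSMUSG00000042817, chromosome 5, 148142317 to 148213493) and Kit (ENSMUSG00000005672, chromosome 5, 75970941 to 76052747), the receptor tyrosine kinases for FLT3 ligand and stem cell factor, were the lowest of the 10 receptors when their highest values over the libraries are compared. Flt3 went in BBC from 0.804 to 1.29 FPKM, in ZNF from 1.31 to 1.38 FPKM and in BCRF8C from 0.492 to 2.46 FPKM. The 3 DMSO values lay within 0.63 of each other on the log2 scale, and the line difference did not pass (limma adjusted p = 0.951). All 3 values with BGJ398 lay inside the quartiles of entries of like level in DMSO. The ratio across lines was 0.53 ± 0.61 (SD, n = 3 lines, adjusted p = 0.332) as deposited and 0.00 with the trend removed (adjusted p = 0.999).

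Kit stood at 1.07 and 1.07 FPKM in DMSO and with BGJ398 in BBC, at 1.64 and 1.30 FPKM in ZNF, and went from 0.916 to 6.32 FPKM in BCRF8C. The BCRF8C library with BGJ398 was thus the highest of the 6, and the other 5 lay between 0.916 and 1.64 FPKM. Entries of 0.5 to 3 FPKM in DMSO in BCRF8C had quartiles of 1.39 and 3.76 FPKM with BGJ398, and Kit was above both. Its ratio there was 1.93 as deposited and 1.86 with the trend removed, and its percentile went from 22.5 to 58.8. Across lines the ratio of 0.58 ± 1.18 (SD, n = 3 lines) did not pass (limma adjusted p = 0.378), nor did the line difference (adjusted p = 0.602). The gene for its ligand, Kitl, moved the other way in that line, from 15.2 to 3.61 FPKM, and was under 1 FPKM in DMSO in BBC and ZNF.

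Tnfrsf9 (ENSMUSG00000028965, chromosome 4, 150288671 to 150320211) encodes 4-1BB, a costimulatory receptor known from activated T and NK cells. It was at 472 FPKM in DMSO and 59.7 FPKM with BGJ398 in BCRF8C, at 1.49 and 2.51 FPKM in BBC, and listed at 0 in both ZNF libraries. The BCRF8C value in DMSO was the highest of any receptor of the set in any library, at percentile 98.1 of the tested entries, and with BGJ398 it was at percentile 96.6. BCRF8C was 5.84 above BBC and 7.40 above ZNF over both agents, with a limma standard error of 0.82, and the line difference passed (adjusted p = 0.0108). It did not pass without BBC (adjusted p = 0.194) or without ZNF (0.117), which leave 2 lines in the test. Without BBC 0 of all entries tested passed for the line. Without BCRF8C, which leaves BBC against ZNF, it passed (adjusted p = 0.0447). Within BCRF8C the ratio was -2.96 as deposited and -0.84 with the trend removed, and 59.7 FPKM lay inside the quartiles of entries of 100 FPKM or more in DMSO (26.5 and 90.0 FPKM). The ratio there was -1.15 after quantile normalization and -2.12 after median-of-ratios scaling. Across lines the ratio was -0.82 ± 1.87 (SD, n = 3 lines, limma adjusted p = 0.332).

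**Figure D3:**
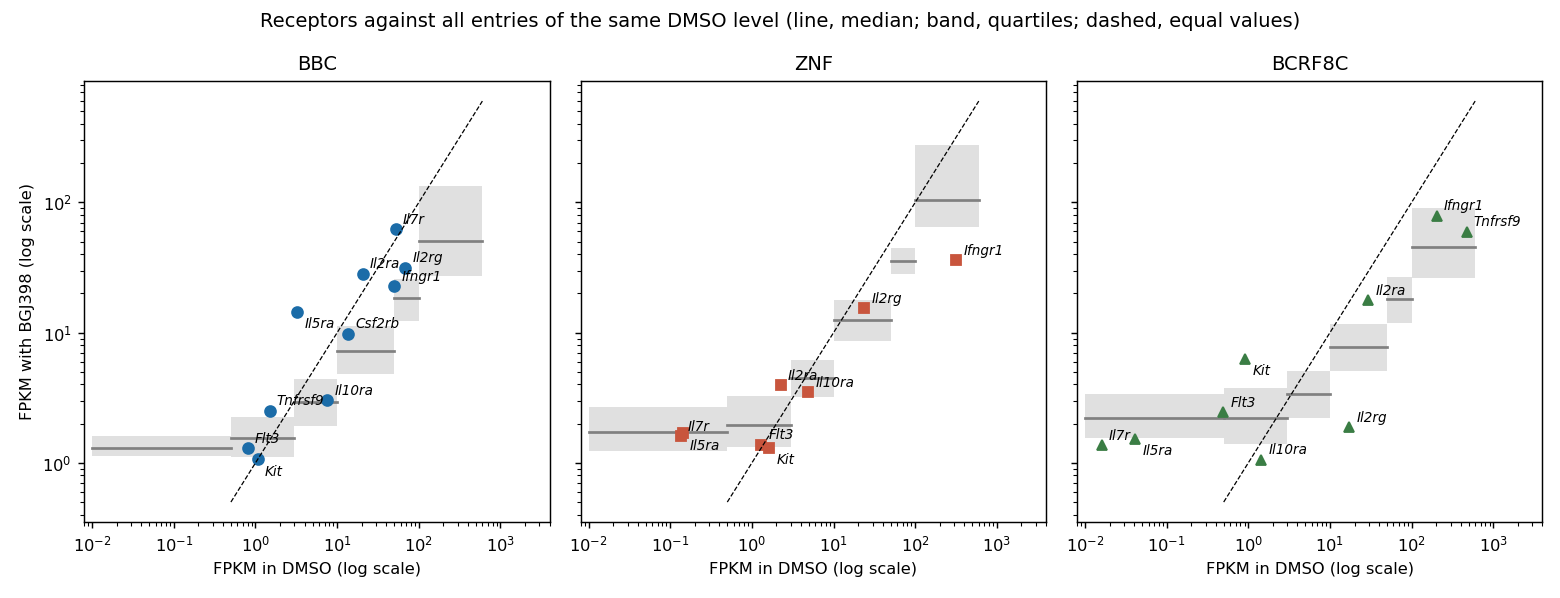
FPKM with BGJ398 against FPKM in DMSO, both on log axes, for the receptors listed above 0 in each line (1 library per axis). Grey lines and bands are the median and quartiles, with BGJ398, of all entries in 6 classes of DMSO level, and the dashed line marks equal values. Low entries sit above the dashed line and high entries below it in all 3 lines. Il7r, Il2ra, Il2rg, Il5ra, Ifngr1 and Tnfrsf9 in BBC, Il2ra in ZNF, and Il2ra and Kit in BCRF8C lie above their bands. Kit in BBC, Kit and Ifngr1 in ZNF, and Il7r, Il2rg, Il5ra and Il10ra in BCRF8C lie below theirs. Quartile bands by definition leave entries above and below them in every class. Ifngr1 in BBC, at 49.9 FPKM in DMSO, sits at the upper edge of its class of 10 to 50 FPKM. Its 22.7 FPKM with BGJ398 would lie inside the quartiles of the class of 50 to 100 FPKM (12.2 and 26.0 FPKM).

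Within single lines, receptors with at least 2-fold differences were set beside the share of such entries in the whole table. A receptor was counted where its mean over the 2 libraries of a line reached 1 FPKM and its values were at least 2-fold apart on the log2(FPKM + 1) scale. In BBC 3 of 10 receptors were lower (Il2rg, Il10ra and Ifngr1) and 1 was higher (Il5ra), where 45.0% of all entries counted were lower and 8.79% higher. In ZNF 1 of 6 was lower (Ifngr1) and 0 were higher, against 16.3% and 13.2% of all entries. In BCRF8C 3 of 7 were lower (Il2rg, Ifngr1 and Tnfrsf9) and 2 were higher (Flt3 and Kit), against 43.5% and 21.7%. Flt3 and Kit both started under 1 FPKM in DMSO in BCRF8C, where nearly all entries were higher with BGJ398. With the trend removed, 0 receptors were lower in BBC and 3 were higher (Il7r, Il2ra and Il5ra), where 11.6% of all entries counted were lower and 13.4% higher. In ZNF 1 was lower (Ifngr1) and 0 were higher, against 4.48% and 13.0%, and in BCRF8C 2 were lower (Il2rg and Il10ra) and 1 was higher (Kit), against 13.7% and 18.8%. The 3 lower calls in BBC also ended after quantile normalization and after median-of-ratios scaling. With 1 library per agent these counts carry no test.

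In DMSO the lines were compared on the 9 receptors that averaged 1 FPKM or more over the 3 libraries. BBC was at least 2-fold above both other lines for 4 of them (Il7r, Il2rg, Il5ra and Csf2rb), ZNF for 0 and BCRF8C for 1 (Tnfrsf9). The shares over all entries were 10.1%, 5.31% and 7.37%. BBC was at least 2-fold below both others for 1 (Ifngr1), ZNF for 2 (Il2ra and Tnfrsf9) and BCRF8C for 1 (Il10ra), against 2.23%, 7.69% and 8.08% of all entries. In order of level, the DMSO library of BBC was led by Il2rg, Il7r and Ifngr1, that of ZNF by Ifngr1 and Il2rg, and that of BCRF8C by Tnfrsf9, Ifngr1 and Il2ra.

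**Figure D4:**
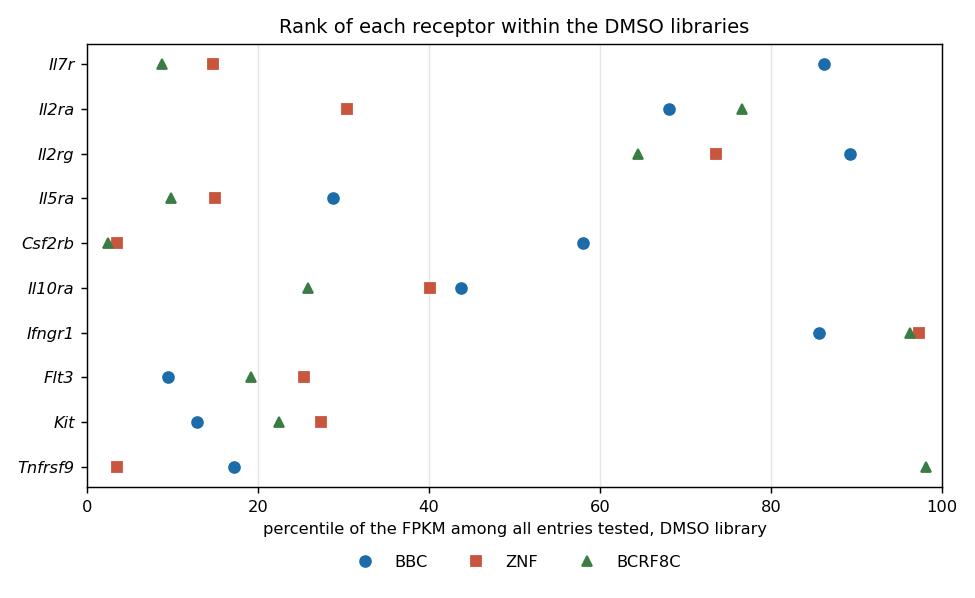
Percentile of each receptor's FPKM among the 14232 entries tested, in the DMSO library of each line (1 library per point). Il7r is far to the right in BBC alone and Tnfrsf9 in BCRF8C alone, whereas Flt3 and Kit lie at or below percentile 27.4 in all 3 lines. Csf2rb lies at percentile 58.0 in BBC and near the left edge in ZNF and BCRF8C.

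Other genes of these pathways were taken from 9 lists of receptors, ligands and signalling proteins. Of 120 names 76 had an entry and 70 were tested, of which 12 were lower with BGJ398, 2 were higher and 13 differed between lines in limma (30.2%, 6.61% and 6.47% over all entries). Their median ratio was -0.59, beside -0.69 for all entries tested. The counts across agents were thus below those of the whole table in both directions, and the count between lines was above it. After quantile normalization, median-of-ratios scaling or removal of the trend, 0 of the 70 passed for the agent (14, 12 and 13 at an unadjusted p under 0.05). The mean ratios of the 12 lower genes stayed below 0 and those of the 2 higher ones above 0 under each. These genes had been picked by sign in the same data, and some ratios were close to 0. With the trend removed, those of Ifnar2 in BBC, ZNF and BCRF8C were 0.02, -0.04 and -0.03. Of the 13 that differed between lines, 8 passed after quantile normalization and 10 after median-of-ratios scaling.

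Among other chains of the receptor groups around the common gamma and beta chains, counted together with the TSLP receptor chain Crlf2, 4 of 8 tested differed between lines. Il2rb, the interleukin-2 and interleukin-15 receptor chain that pairs with Il2rg, had 331 FPKM in BCRF8C, 4.64 FPKM in ZNF and 0.656 FPKM in BBC in DMSO, and 33.1 FPKM with BGJ398 in BCRF8C (limma adjusted p = 0.0200 for the line). Il4ra, the interleukin-4 receptor chain, had 71.4 FPKM in BCRF8C, 6.98 FPKM in BBC and 0.0797 FPKM in ZNF (adjusted p = 0.0381), and Il9r was highest in ZNF at 8.98 FPKM (adjusted p = 0.0491). Crlf2, which pairs with Il7r, had 16.5 FPKM in BBC, 1.84 FPKM in ZNF and 3.70 FPKM in BCRF8C (adjusted p = 0.0481 for the line). It was also the 1 of these 8 that passed the test as lower with BGJ398 (log2 ratio -1.24 ± 0.47, SD, n = 3 lines, adjusted p = 0.0373).

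Among the other class I receptors, 1 of 8 tested was lower, Il12rb1 (-1.56 ± 1.02, SD, n = 3 lines, limma adjusted p = 0.0423), and 2 were higher, Prlr (1.70 ± 0.66, adjusted p = 0.0352) and Osmr (1.56 ± 0.77, adjusted p = 0.0434). The higher ones were under 1 FPKM in DMSO in all 3 lines, where a rise is built into the table. Il27ra differed between lines (adjusted p = 0.0301), from 10.9 FPKM in ZNF to a listed 0 in BCRF8C. Of 5 class II receptors tested, Ifnar2 passed as lower (-0.99 ± 0.33, adjusted p = 0.0452), and it was level between lines in DMSO at 15.2, 14.2 and 14.4 FPKM.

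In the rest of the TNF receptor family 0 of 9 passed the limma test of the agent, with 4 at an unadjusted p under 0.05. Cd27, a T cell costimulatory receptor that was highest in ZNF (23.1 FPKM, adjusted p = 0.0407), and Tnfrsf1b, a TNF receptor that was highest in BCRF8C (17.3 FPKM, adjusted p = 0.0427), differed between lines. Among 7 other receptor tyrosine kinases 0 passed the limma test of the agent, with 2 at an unadjusted p under 0.05, and 1, Fgfr1, differed between lines (adjusted p = 0.0248). In DMSO Fgfr1 had 36.7 FPKM in BBC, 12.9 FPKM in ZNF and 0.510 FPKM in BCRF8C. Of 8 tested receptors of the interleukin-1, interleukin-17 and TGF beta families, Il17ra passed as lower (-1.19 ± 0.35, adjusted p = 0.0368) and Il18rap, Tgfbr1 and Tgfbr2 differed between lines. Il18rap, an interleukin-18 receptor chain, had 67.1 FPKM in BCRF8C, and Tgfbr1 had 66.4 FPKM in ZNF.

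**Figure D5:**
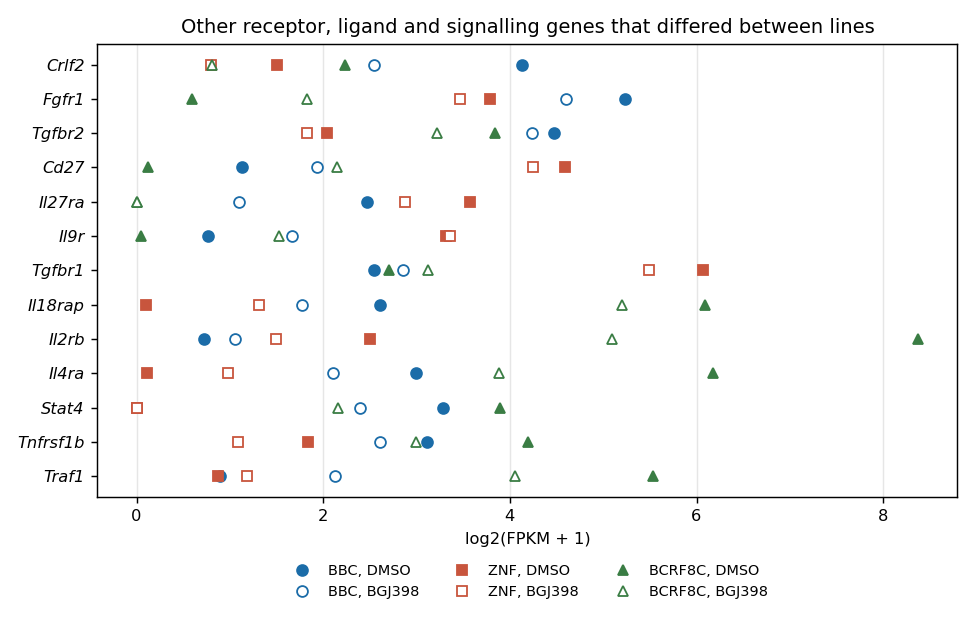
Level, as log2(FPKM + 1), of the 13 other receptor, ligand and signalling genes that passed the limma test of the line difference, in DMSO (filled) and with BGJ398 (open), with 1 library per point and no error bars. Il2rb, Il4ra, Il18rap and Traf1 are highest in both BCRF8C libraries, and Tgfbr1, Cd27 and Il9r in both ZNF libraries.

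Ligand genes were mostly low. Of 15 names 4 had an entry and 3 were tested, with 0 called by limma for the agent (0 at an unadjusted p under 0.05) or for the line (3 at an unadjusted p under 0.05). Flt3l, the ligand of Flt3, was found in all 3 lines, at 6.51, 2.29 and 12.3 FPKM in DMSO in BBC, ZNF and BCRF8C and 4.36, 2.52 and 10.2 FPKM with BGJ398. Tnfsf9, the ligand of Tnfrsf9, had 4.84 FPKM in BCRF8C in DMSO and 1.50 and 1.28 FPKM in BBC and ZNF.

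Of the 11 JAK and STAT genes, 4 were lower with BGJ398 and 0 were higher, against 30.2% and 6.61% of all entries tested. Among them were Tyk2 (-1.18 ± 0.64, limma adjusted p = 0.0423), Stat5a (-1.02 ± 0.41, adjusted p = 0.0460) and Stat5b (-1.11 ± 0.46, adjusted p = 0.0401). Stat5a and Stat5b act below interleukin-7, interleukin-2 and interleukin-5 receptors. With the trend removed, the ratios of Stat5a in BBC, ZNF and BCRF8C were -0.35, 0.07 and 0.11. Those of Stat5b were -0.11, -0.04 and -0.64. Jak3, the kinase that binds the common gamma chain, went in BBC from 14.3 to 4.92 FPKM, in ZNF from 5.61 to 3.71 FPKM and in BCRF8C from 4.75 to 2.52 FPKM and did not pass (adjusted p = 0.0662). Stat4 differed between lines (adjusted p = 0.0301) and was listed at 0 in ZNF.

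Of 11 regulators of cytokine signals, 4 were lower with BGJ398, where 30.2% of all entries tested were. They were Socs1 (-2.39 ± 1.19), Socs2 (-1.86 ± 0.96), Ptpn11 (-1.36 ± 0.28) and Traf2 (-1.23 ± 0.36), with limma adjusted p from 0.0348 to 0.0388. Socs1 and Socs2 encode feedback inhibitors of JAK signals, and Traf2 an adaptor of TNF family receptors. Traf1, an adaptor of Tnfrsf9, differed between lines (adjusted p = 0.0367) and was at 45.3 FPKM in DMSO in BCRF8C against 0.864 FPKM in BBC and 0.825 FPKM in ZNF.

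Genes with the most similar profile were sought for the 3 receptors with the widest range over the 6 libraries, as the smallest Euclidean distance between profiles of log2(FPKM + 1) centred on their means, among 10473 protein genes. For Tnfrsf9 they were Prf1 (distance 0.54), which had 489 FPKM in DMSO and 42.4 FPKM with BGJ398 in BCRF8C, and P2ry14 (1.50). For Il7r they were Tifa (0.91), with 61.5 and 96.4 FPKM in BBC, and Spib (1.16), with 51.6 and 45.3 FPKM there. For Il2rg they were Spcs1 (0.55) and Tcf3 (0.64), the latter with 192 and 76.7 FPKM in BBC and 54.2 and 11.3 FPKM in BCRF8C.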

How the data were processed

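RNA was sequenced from 6 libraries, 1 for each of 3 lines with BGJ398 or DMSO. Per the labels' protocols, total RNA was used with a standard Illumina protocol. TopHat2 2.0.12, bcl2fastq and the build NCBIM37 are named per the submitters' processing notes. The authors deposited FPKM values in 1 table of 17169 entries. Its program, annotation, filters, strand setting and read depth were not given in the sources used here. No interval that needs depth was computed, and reads of near-identical or overlapping genes may have been split.

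The sum of 1 and the FPKM was put on a log2 scale and fitted with limma 3.58.1 in R 4.3.3 (moderated with a trend on expression, two-sided) for the 14232 entries averaging 1 FPKM or more. The agent and the line were both in the model, which leaves 2 residual degrees of freedom, and p-values were adjusted by Benjamini-Hochberg over all entries tested. The line difference was the moderated F test of the line coefficients. An exact sign test over 3 lines cannot give less than p = 0.25. Comparisons with 1 library per group had no test and used a 2-fold rule. In an alternative, a loess curve of ratio against expression (span 0.5) was subtracted within each line. The fit was also run on simulated data with independent normal noise. Those data held no trend of ratio against level, so they cannot show how the trend affects the calls.

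Both libraries of a line come from the same line, which pairs them. Deviations from the agent means correlated at 0.45, 0.54 and 0.55 within the lines and were below 0 between lines. Such deviations sum to 0 over the lines of an agent. The values below 0 between lines therefore follow in part from subtracting the means.

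The receptors and lists were chosen with earlier results of these data known. From each of 9 pathway lists, genes that passed the agent or line test (at most the 3 with the largest change) and the 2 highest in DMSO were eligible to be named. Other genes that are named outside that rule were chosen after their values were seen. There were 8 marker lists. Those for mast cells, basophils and eosinophils summed to between 0.412 and 5.31 FPKM over the libraries, for erythroid cells and platelets to between 0.0568 and 35.1 FPKM, for NK and dendritic cells (a list that also holds Flt3) to between 1.42 and 33.5 FPKM, and for stem and progenitor cells to between 20.6 and 853 FPKM. Where 548 entries shared a symbol, the entry with the highest mean stood for it. Table starts were raised by 1 to count from 1. Single values of some list genes are not reported here.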

Additional observations from a re-analysis of the deposited data

Results flagged for a closer look

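For 3 receptors the libraries of 2 lines moved in opposite directions with BGJ398. With 1 library per line and agent, none of these differences was tested. Kit was higher with BGJ398 in BCRF8C and slightly lower in ZNF, with ratios 2.13 apart on the log2 scale. The rise of Kit in BCRF8C began at 0.916 FPKM, where a rise is built into the table. In BBC Kit was level at 1.07 FPKM (ratio -0.003), 1.94 below its ratio in BCRF8C. Tnfrsf9 was higher in BBC and lower in BCRF8C, 3.46 apart. Il2ra was lower in BCRF8C and higher in BBC and ZNF, 1.15 and 1.30 apart. With the trend of the ratio on expression removed, Kit and Tnfrsf9 kept opposite signs in these pairs of lines, and Il2ra was above 0 in all 3 lines. After median-of-ratios scaling the ratio of Kit was 0.58 in BBC and -0.03 in ZNF.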

How the results depend on the processing

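As deposited, 5236 entries passed the test of the agent, 941 of them higher. That number was 2 (1 higher) after quantile normalization, 4 (3 higher) after median-of-ratios scaling, 7 (6 higher) with the trend removed and 7 (6 higher) with no replicate block, that is, without pairing the libraries of a line. Leaving out a line gave between 0 (without BBC, with 2991 at an unadjusted p under 0.05) and 4974 (without ZNF, 179 higher), with 1648 (796 higher) without BCRF8C. The line difference passed for 921 entries, for between 0 (without BBC, with 2015 at an unadjusted p under 0.05) and 1740 (without BCRF8C) with a line left out, 124 without ZNF, and for 1868 among entries above 0 in all 6 libraries, an alternative added after seeing the data. For the agent 7287 of these 12721 entries passed in limma (1620 higher), among them Il2rg (adjusted p = 0.0122) and Il7r (0.0367). Il2rg also passed for the line (0.00644).

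Without the block Il5ra (adjusted p = 0.252) and Ifngr1 (0.132) did not pass for the agent. Deposited falls of at least 2-fold turned to rises for Il2rg in BBC (0.41 after quantile normalization, 0.0049 after median-of-ratios scaling, 0.58 with the trend removed), for Ifngr1 in BBC (0.33 and 0.49, quantile and trend) and for Ifngr1 in BCRF8C (0.69 and 0.69, quantile and trend). Smaller deposited falls also turned, among them Csf2rb in BBC (0.58 to 0.83) and Il2ra in BCRF8C (0.11 to 0.78) under all 3 of these scalings. The cause of these changes was not tested. A pseudocount of 0.1, no filter and a mean of at least 5 FPKM kept the total counts within 1.5 times, but with at least 5 FPKM 315 entries were higher.

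Depth is unknown, and no line had a repeat culture, so neither counting error nor culture error can be given.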

Other observations

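Some other immune receptor and effector genes, chosen after their values were seen, were high in BCRF8C beside Tnfrsf9. In its DMSO library Prf1, which encodes the pore protein perforin, had 489 FPKM and Il2rb had 331 FPKM, and with BGJ398 they had 42.4 and 33.1 FPKM. Klrb1c, an NK cell receptor, had 32.7 and 15.5 FPKM, while the other 3 NK and dendritic cell markers with an entry were under 1 FPKM in DMSO there. Il18rap had 67.1 and 35.7 FPKM. The T lineage signal gene Cd247 was at 12.9 and 4.86 FPKM in that line against 93.2 and 68.7 FPKM in ZNF. In ZNF Prf1 was listed at 0 in both libraries, and in BBC it had 1.43 and 3.16 FPKM.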
